A study of Mus musculus with 19 samples.

Results

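Apolipoproteins are the protein components of the plasma lipoproteins, and 10 of their genes were followed here through mouse RNA-seq libraries: Apoa1, Apoa2, Apoa4, Apoa5, Apob, Apoc1, Apoc2, Apoc3, Apod and Apoe. The genes were found by symbol. All 10 were among the 55573 genes listed for 7 tissues, all 10 among the 55487 listed for brown adipose tissue (BAT) and 6 among the 13756 listed for inguinal white adipose tissue (iWAT). The study asked where proteins secreted by muscle are expressed and how an excess of the myokine Musclin (gene Ostn) alters adipose tissue in the cold. Liver, small intestine, white adipose, brown adipose, brain, heart and tibialis anterior muscle came from wild-type (WT) C57BL/6J mice on chow, with 1 library per tissue and no age in the labels. iWAT and BAT came from WT and MCK-Musclin mice, all kept at 8 °C for 1 week, with 3 libraries per genotype and depot. The iWAT and BAT mice were males, 5 months old. In MCK-Musclin mice, which were backcrossed to C57BL/6J, the coding sequence of Musclin was placed behind the promoter of muscle creatine kinase (MCK), a gene of striated muscle. Cold was common to both genotypes, so the effect of cold itself was not analysed here.

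Lipoproteins carry triglyceride and cholesterol between organs. Apob is the structural protein of chylomicrons, made in the intestine, and of very low density lipoprotein, made in the liver, while Apoa1 and Apoa2 are the main proteins of high density lipoprotein. Apoc2 activates lipoprotein lipase, Apoc3 restrains it and Apoa5 favours triglyceride clearance. Apoe is a ligand of the low density lipoprotein receptor family and is made by hepatocytes, macrophages, astrocytes and adipocytes. Apod is a lipocalin, unrelated in structure to the others, that is found in glia, fibroblasts and other cells.

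Values were FPKM (fragments per unit of transcript length and of library depth), a scale on which levels of different genes can be set side by side. The step between the lowest values put the depth at an estimated 16200000 to 21300000 fragments per library in the 7 tissues and BAT, while for iWAT the depth is not known. Marker genes were read to check the tissue labels. Summed hepatocyte markers reached 36195 FPKM in liver, enterocyte markers 2794 FPKM in small intestine, cardiomyocyte markers 32127 FPKM in heart and skeletal muscle markers 74338 FPKM in tibialis anterior. Ostn was at 37.9, 31.6 and 30.3 FPKM in the MCK-Musclin BAT libraries and listed at 0 in all WT BAT libraries. In iWAT it was at 5.17 and 4.21 FPKM in MCK-Musclin 2 and 3, but listed at 0 in the library labelled MCK-Musclin 1, and at most at 0.225 FPKM in WT. Skeletal muscle markers summed to 6.23 FPKM in the library labelled MCK-Musclin 1 against 84.3 and 99.6 FPKM in MCK-Musclin 2 and 3, so Ostn could not check that label. Members and counts of calls that changed without this library are given both ways. Single pathway genes are given with all libraries. Muscle markers ranged from 4.78 to 2538 FPKM over the WT iWAT libraries. Lymphocyte markers summed to 334 to 421 FPKM in MCK-Musclin iWAT and to 172 to 269 FPKM in WT iWAT.

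Liver held the highest level of 7 of the 10 apolipoproteins, among them Apoe, Apoa1, Apoa2 and Apob. Small intestine was highest for Apoa4 and Apoc2, and brain for Apod. Of all 18327 genes that reached 1 FPKM in a tissue, 8.18% were highest in liver. A liver level at least 10-fold above the next tissue was found for 3 members (Apoa2, Apoa5 and Apoc1) and for 2.34% of all these genes. Of the 70 pairs of member and tissue, 40 reached 1 FPKM and 13 were listed at 0. Each tissue was 1 library, so these differences have no replicate check and were given no test.

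**Figure D1:**
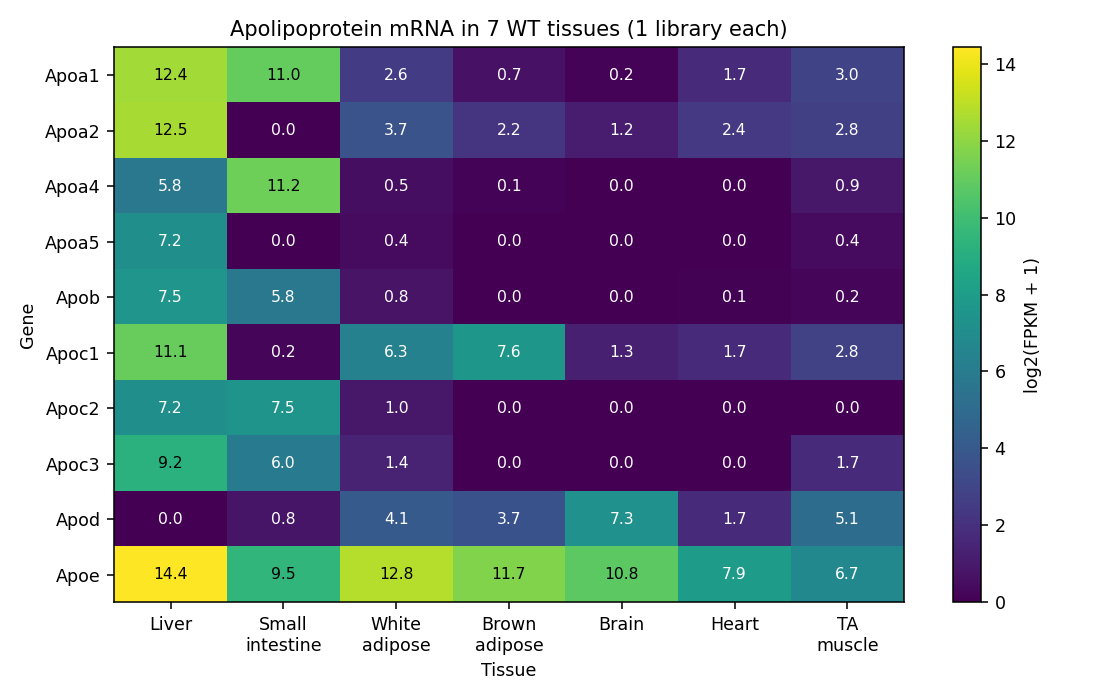
Level of the 10 apolipoprotein genes (rows) in the 7 WT tissues (columns), 1 library per tissue, as log2(FPKM + 1), shown by colour and printed in each cell. Liver and small intestine carry most of the high values, Apoe is high in each tissue, and Apod is at 0 in liver.

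Among the structural proteins, Apob was at 184 FPKM in liver and 53.7 FPKM in small intestine, and at most at 0.683 FPKM in the other 5 tissues. Apoa1 was at 5485 FPKM in liver and 2079 FPKM in small intestine, a liver level 2.64-fold higher. The next value of Apoa1 was 6.81 FPKM in tibialis anterior. Apoa2, its partner on high density lipoprotein, stood at 5873 FPKM in liver and was listed at 0 in small intestine. The ratio of Apoa2 to Apoa1 was thus 1.07 in liver, while the intestine library held Apoa1 alone.

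The regulators of lipoprotein lipase also differed between liver and intestine. Apoa5 was at 145 FPKM in liver, or 99.5% of its FPKM summed over the 7 libraries. It was listed at 0 in small intestine and was at most at 0.349 FPKM elsewhere. Apoc3 had 583 FPKM in liver and 61.7 FPKM in small intestine, a 9.45-fold difference. Apoc2 had its higher value in small intestine, 177 FPKM against 146 FPKM in liver. This 1.21-fold difference turned with the scaling, since 8 members rather than 7 were highest in liver after median-ratio scaling or quantile normalization.

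Apoa4, a component of chylomicrons, had the largest intestinal share of the 10 genes, with 2406 FPKM in small intestine and 53.8 FPKM in liver, or 97.8% of its summed FPKM in small intestine. Apoc1, which inhibits lipid transfer and receptor binding, was at 2146 FPKM in liver. Apart from Apoe and Apod it was the only member above 12.0 FPKM in the white and brown adipose libraries of the 7 tissues, at 199 FPKM in brown and 79.5 FPKM in white adipose. In small intestine Apoc1 was at 0.142 FPKM.

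Apoe was the most abundant member in 6 of the 7 tissues, the exception being small intestine, where Apoa4 and Apoa1 were higher. Its level ran from 21983 FPKM in liver through 7333 in white adipose, 3262 in brown adipose, 1756 in brain, 731 in small intestine and 239 in heart to 104 FPKM in tibialis anterior. By level it ranked 2 among all genes in liver, 5 in white adipose, 16 in brain and 22 in brown adipose. Apoe alone made up 3.94% of the summed FPKM in liver and 1.75% in white adipose, where the 10 members together made up 6.56% and 1.77%.

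Apod had another distribution. It was at 154 FPKM in brain, 33.4 in tibialis anterior, 15.7 in white adipose, 11.6 in brown adipose, 2.28 in heart and 0.781 FPKM in small intestine, and it was listed at 0 in liver. The brain level was 4.60-fold above that of tibialis anterior. On the log2(FPKM + 1) scale its correlation over the 7 tissues was negative with each of the other 9 members, with Pearson's r from -0.786 with Apoa1 to -0.238 with Apoe. Apob and Apoa1 had an r of 0.985, and Apoa5 and Apoa2 an r of 0.971. These values describe 7 single libraries, and most of the high values lie in liver and intestine.

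**Figure D2:**
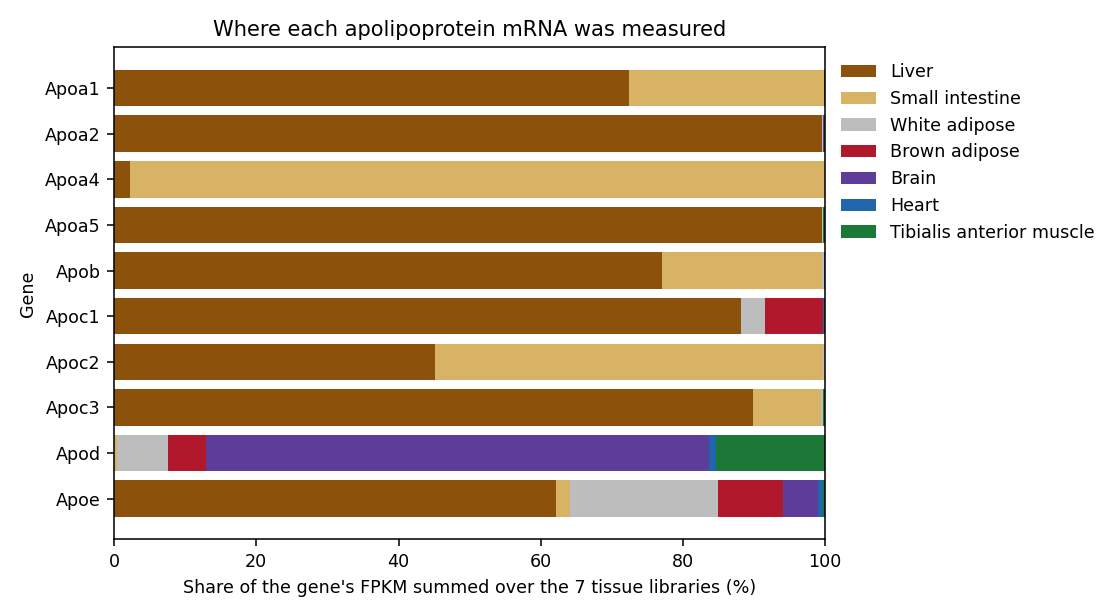
Share of each gene's FPKM, summed over the 7 tissue libraries, that came from each tissue (horizontal axis in percent, 1 bar per gene). Apoa2 and Apoa5 lie almost wholly in liver and Apoa4 in small intestine, Apod is led by brain with 70.7%, and Apoe has the largest white adipose share, 20.7%.

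In the genome (GRCm38, GENCODE), 7 of the 10 genes lie in 2 clusters. On chromosome 9, Apoa1, Apoc3, Apoa4 and Apoa5 lie within 43.3 kb (chr9:46228580-46271919), and on chromosome 7, Apoc2, Apoc1 and Apoe lie with Apoc4 within 27.6 kb (chr7:19671579-19699188). Neighbours did not share 1 tissue pattern. On chromosome 9, Apoa4 was led by intestine, Apoa5 was listed at 0 there, and Apoa1 was high in both liver and intestine. On chromosome 7, Apoe was read in each tissue and Apoc1 was highest in liver and the 2 fat tissues, at 6.16 FPKM or less in the other 4, while Apoc2 was at 177 FPKM in intestine, at 146 FPKM in liver and below 1 FPKM in the other 5 tissues. Apoc4, which is not among the 10 genes, was at 834 FPKM in liver and 1.11 FPKM in white adipose. Exons of Apoa4 and Apoa5 overlap non-coding genes on the opposite strand, and exons of Apoc2 overlap the gene model Gm44805 on the same strand. Strand was not used in alignment, so reads in the parts shared with genes of the opposite strand cannot be told apart. Gm44805 also overlaps exons of Apoc4, and there strand would not separate the reads of the shared parts.

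Promoter windows from RefSeq (GRCm38.p6, from 250 bases before to 50 bases after a start site, 300 bases) were found for 8 of the 10 genes, 12 windows in all; Apoc1 and Apoc3 were not matched. The bases before the start are shown for 4 genes with different tissue patterns: Apoa1 (liver and intestine), its cluster neighbour Apoa5 (liver alone), Apoe (each tissue) and Apod (brain first, not in liver). Each is written 5′ to 3′ on the strand of the gene, and capitals mark a TATAAA match. The Apoa1 stretch is chr9:46228380-46228579 on the plus strand, shortened to end before the most upstream annotated start. Apoa5 is chr9:46268358-46268607 on the plus strand, Apoe is chr7:19699189-19699438 on the minus strand and Apod is chr16:31314809-31315058 on the minus strand.
Apoa1: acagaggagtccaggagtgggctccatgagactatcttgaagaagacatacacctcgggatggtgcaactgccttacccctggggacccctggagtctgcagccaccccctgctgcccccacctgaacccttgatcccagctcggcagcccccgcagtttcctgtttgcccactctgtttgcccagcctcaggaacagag
Apoa5: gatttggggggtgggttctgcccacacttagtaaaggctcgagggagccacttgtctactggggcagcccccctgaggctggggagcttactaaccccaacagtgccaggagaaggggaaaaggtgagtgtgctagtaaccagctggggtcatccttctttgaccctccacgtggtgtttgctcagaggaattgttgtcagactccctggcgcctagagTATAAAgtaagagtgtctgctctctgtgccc
Apoe: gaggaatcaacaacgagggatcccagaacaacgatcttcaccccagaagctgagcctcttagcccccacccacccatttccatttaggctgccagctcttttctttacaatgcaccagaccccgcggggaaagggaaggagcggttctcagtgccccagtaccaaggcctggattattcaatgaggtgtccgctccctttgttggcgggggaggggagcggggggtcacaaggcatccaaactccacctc
Apod: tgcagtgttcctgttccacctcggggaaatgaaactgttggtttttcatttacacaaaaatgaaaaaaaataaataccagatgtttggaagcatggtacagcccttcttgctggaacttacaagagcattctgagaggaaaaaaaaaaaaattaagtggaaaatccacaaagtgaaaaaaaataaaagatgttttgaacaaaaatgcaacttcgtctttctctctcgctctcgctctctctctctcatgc

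TATAAA was searched on both strands and lay in 5 of the 12 windows (of Apoa2, Apoa5, Apob and Apoe), against 13.6% of all 32851 RefSeq promoter windows of the same length. The 2 Apoa5 windows overlap and hold the same match, which is counted in both. It began 31 bases before one start site and 56 bases before the other. The match of Apob began 60 bases before its start site and that of Apoa2 212 bases before it. In Apoe the matches lay in a window of a downstream start site and not in the stretch shown. The nuclear receptor motif AGGTCA lay in 2 of the 12 windows, of Apoc2 and of an upstream start of Apoa2, against 16.3% of all windows. The HNF4 core CAAAGTCC lay in none of the 12 windows and in 1.42% of all windows. A match is a run of letters and not a measured binding site.

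By a rule on the 10413 genes that reached 10 FPKM in a tissue, the genes with the tissue pattern most like each member were found from Pearson's r of log2(FPKM + 1) over the 7 libraries. Fabp1, a fatty acid binding protein of liver and intestine, was nearest to Apoa1 (r = 0.9991), followed by Cyp3a11 and Slc2a2. Pdzk1 and Abcg5, a sterol exporter, were nearest to Apoc2 (r = 0.9994 and 0.9993), followed by Ugt2b34. Cps1, a urea cycle enzyme, was nearest to Apob (r = 0.9995), followed by Cyp2c68 and Cyp3a25. Aadac was nearest to Apoc3 (r = 0.9957), followed by Cyp3a11 and Hsd3b3. All these genes shared the pair of liver and intestine.

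Apoa4 was nearest to Oasl1, Fabp2 and Mgam (r = 0.997 for Oasl1 and Fabp2). Liver-only members matched many genes, with 171 genes at an r of at least 0.99 to Apoa5, led by BC024386, Dmgdh and Saa4. Mup9 and Mup10 were among the genes most like Apoa2 (r = 0.9912 and 0.9907). Apoc1, Apod and Apoe had no gene at an r of 0.99. Their nearest genes were Urod, Orm1 and Sult1a1 for Apoc1 (Urod, r = 0.9574), Gtdc1, Micu3 and Fam57b for Apod (Gtdc1, r = 0.9724), and, among others, Mtss1 and Lrp1 for Apoe (Mtss1, r = 0.9778). Lrp1 is itself a receptor for Apoe and had an r of 0.9726 to it, with 59.5 FPKM in liver and 50.2 FPKM in white adipose. With 7 points of 1 library each, these values rank likeness and no more.

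Low levels of members stood in part beside low levels of hepatocyte genes in the other tissues. In white adipose Apoa1, Apoa2, Apoa5 and Apob were at 0.0905%, 0.204%, 0.217% and 0.372% of their liver level, and Alb (albumin) at 0.161%. Apoc3, Apoc2 and Apoa4 were at 0.28%, 0.641% and 0.818% there. After Cyp2e1 the highest hepatocyte marker there was Tdo2, at 0.683%. In tibialis anterior Apoa1, Apoa2 and Apoa5 were at 0.124%, 0.0978% and 0.240% of liver, and Alb at 0.0517%. The highest hepatocyte marker there was Fgb, at 0.126%. Apoa5 lay above it, as did Apoc1 (0.287%), Apoc3 (0.404%), Apoe (0.473%) and Apoa4 (1.66%), while Apoa1, Apoa2, Apob and Apoc2 lay below it. All 10 hepatocyte markers were above 0 in white adipose and in tibialis anterior, 9 of 10 in brown adipose and in heart, and 6 of 10 in brain. Values of Apoc1 in brown adipose (9.25% of liver), Apoe in white adipose (33.4%) and Apoe in brain (7.99%) lay far above the Alb share in the same library (0.00547%, 0.161% and 0.00121%). Not every hepatocyte marker was low there: Ttr was at 14.7% of liver in brain and Cyp2e1 at 52.7% in white adipose, above the Apoe shares. The part of liver RNA in the low values was not tested.

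The other genes of lipoprotein metabolism, taken from lists written for this purpose, followed organs by function. Of 13 other apolipoproteins and plasma lipoprotein proteins, 12 were highest in liver (Apoh 1006 FPKM, Apoc4 834 FPKM), and Pltp, the phospholipid transfer protein, was highest in white adipose (72.8 FPKM). Of 11 genes for lipoprotein assembly and cholesterol efflux, 7 were highest in small intestine, led by Mttp, which loads lipid onto Apob, at 412 FPKM against 77.1 FPKM in liver. Mttp and Apob thus had opposite orders in these 2 libraries.

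The remaining lists spread over more tissues. Of 12 receptor genes, 11 reached 1 FPKM in a tissue. Of these 11, 4 were highest in white adipose and 3 in liver, and Lrp8, the brain receptor for Apoe, was highest in brain (9.91 FPKM). Of 9 genes for lipolysis in plasma, 5 were highest in liver and 3 in white adipose, where Lpl (lipoprotein lipase) was at 1370 FPKM. Of 10 transcriptional regulators, 4 were highest in liver and 4 in small intestine. Hnf4a was at 175 FPKM in intestine and 109 FPKM in liver and did not pass 0.309 FPKM elsewhere, while Creb3l3 was at 111 FPKM in liver and 90.2 FPKM in intestine.

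In cold iWAT, the members were compared between MCK-Musclin and WT mice. None of the 6 listed members (Apoa1, Apoa2, Apoc1, Apoc2, Apod and Apoe) passed the cutoff of the study, a log2 fold change beyond 0.5 together with an unadjusted p under 0.05, in limma on log2(FPKM + 1). Over all 12197 genes tested, 5.04% were higher and 0.902% lower by that cutoff (615 and 110 genes). None of the 6 had an unadjusted p under 0.05, against 2012 of all genes, and 0% of all genes had an adjusted p under 0.05. All 6 passed the filter on low values (mean of at least 1 FPKM). Apoa4, Apoa5, Apob and Apoc3 were not listed for iWAT and were not analysed there.

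Apoe was at 6320, 7046 and 5491 FPKM in WT 1 to 3, at 7704 FPKM in the library labelled MCK-Musclin 1, and at 6008 and 8664 FPKM in MCK-Musclin 2 and 3. It was among the 4 most abundant genes in each iWAT library (rank 3 or 4). The highest values were in MCK-Musclin libraries, but MCK-Musclin 2 lay below WT 1 and WT 2, so the groups overlapped. The log2 fold change was 0.24 (SE 0.19, 95% interval -0.21 to 0.68, limma adjusted p = 0.568), and it became -0.08 after quantile normalization, 0.16 after median-ratio scaling and 0.46 when centred on adipocyte markers. Single libraries also moved it, to 0.39 without MCK-Musclin 2, 0.12 without MCK-Musclin 3 and 0.14 without WT 3.

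Apoc1 was at 154, 173 and 135 FPKM in WT, at 161 FPKM in the library labelled MCK-Musclin 1, and at 91.0 and 133 FPKM in MCK-Musclin 2 and 3. The lowest value of the 6 was MCK-Musclin 2. The groups overlapped, with a log2 fold change of -0.29 (SE 0.21, 95% interval -0.78 to 0.20, limma adjusted p = 0.524). Only the library labelled MCK-Musclin 1 lay within the WT range. Without it the log2 fold change was -0.47 (SE 0.19, limma unadjusted p = 0.0492, limma adjusted p = 0.315). That met the p part of the cutoff but was short of the fold change of 0.5. The log2 fold change was -0.06 without MCK-Musclin 2 and -0.07 when centred on adipocyte markers.

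Apod was at 120, 88.3 and 119 FPKM in WT, and at 133, 96.9 and 110 FPKM in the libraries labelled MCK-Musclin 1 to 3. The means were 109 ± 18.0 FPKM (SD, n = 3) in WT and 113 ± 18.2 FPKM (SD, n = 3) in MCK-Musclin, a difference smaller than the spread. The log2 fold change was 0.05 (95% interval -0.33 to 0.44, limma adjusted p = 0.898), and it was -0.07 without the library labelled MCK-Musclin 1 and -0.09 without WT 2.

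**Figure D3:**
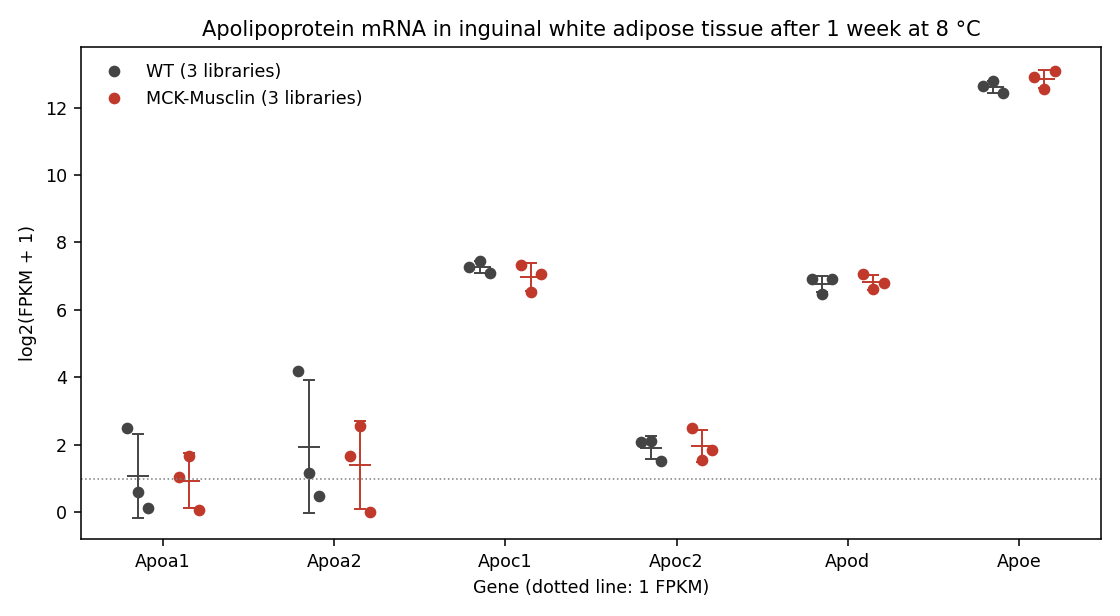
Level of the 6 listed apolipoproteins in iWAT after 1 week at 8 °C, as log2(FPKM + 1), with 1 point per library, WT in grey and MCK-Musclin in red, and bars for the mean ± SD of 3 libraries. The genotypes overlap for each gene, and Apoa1 and Apoa2 spread from near 0 to well above 1 FPKM within a genotype.

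The liver-type members varied most among iWAT libraries. Apoa2 was at 17.1, 1.27 and 0.412 FPKM in WT, at 2.16 FPKM in the library labelled MCK-Musclin 1, and at 4.87 and 0 FPKM in MCK-Musclin 2 and 3. Apoa1 was at 4.62, 0.519 and 0.102 FPKM in WT and at 1.07, 2.20 and 0.0468 FPKM in the libraries labelled MCK-Musclin 1 to 3. Both genes were highest in WT 1, next in MCK-Musclin 2 and lowest in MCK-Musclin 3.

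Alb had the same 2 highest libraries and the same lowest one, at 27.0, 16.6 and 8.50 FPKM in WT and 11.3, 18.6 and 7.29 FPKM in MCK-Musclin. Of the 10 hepatocyte markers, 3 are listed for iWAT, and their sum (1240 to 1643 FPKM in WT, 828 to 1456 FPKM in MCK-Musclin) is nearly all Cyp2e1, which white adipose also expresses. Cyp2e1 was lowest in MCK-Musclin 2 (809 FPKM). Tdo2, a liver enzyme of tryptophan breakdown, was at 1.13, 1.35 and 0.631 FPKM in WT and 1.20, 0.337 and 1.60 FPKM in MCK-Musclin, so that these 2 markers did not follow the order of Apoa1, Apoa2 and Alb. The part of liver RNA in the Apoa1 and Apoa2 values was not tested. The log2 fold change of Apoa2 was -0.55 (SE 1.01, limma adjusted p = 0.822) with all libraries and 0.57 without WT 1, and that of Apoa1 was -0.15 (SE 0.65, limma adjusted p = 0.933) and 0.56 without WT 1. Without MCK-Musclin 3 both were also above 0.

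Apoc2 was at 3.24, 3.37 and 1.86 FPKM in WT and at 4.61, 1.91 and 2.62 FPKM in the libraries labelled MCK-Musclin 1 to 3. The groups overlapped (log2 fold change 0.05, 95% interval -0.59 to 0.69, limma adjusted p = 0.944), and the value was -0.21 without the library labelled MCK-Musclin 1 and -0.15 without WT 3. The median log2 fold change of the 6 members was -0.05, beside 0.06 for all genes tested.

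In cold BAT, none of the 5 members that passed the filter (Apoa2, Apoc1, Apoc3, Apod and Apoe) passed the cutoff of the study, which for BAT was a log2 fold change beyond 0.3 together with an unadjusted p under 0.05. None of the 5 had an unadjusted p under 0.05 in limma, against 533 of all genes. Over all 10893 genes tested, 1.85% were higher and 2.15% lower by that cutoff, and 0.00918%, or 1 gene, had an adjusted p under 0.05. The median log2 fold change of the 5 members was -0.11, beside -0.01 for all genes. All 6 skeletal muscle markers passed the cutoff as higher in MCK-Musclin BAT (median log2 fold change 0.87), as did 3 of 5 erythrocyte markers. The part of muscle or blood in the member values was not tested.

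Apoe was at 536, 479 and 429 FPKM in WT and at 600, 263 and 402 FPKM in MCK-Musclin 1 to 3. The MCK-Musclin libraries held both the highest and the lowest value, with a mean of 421 ± 169 FPKM (SD, n = 3) against 481 ± 53.2 FPKM (SD, n = 3) in WT. The log2 fold change was -0.27 (SE 0.27, 95% interval -0.89 to 0.36, limma adjusted p = 0.968). It was -0.56 without MCK-Musclin 1, which passed the unadjusted cutoff (limma adjusted p = 0.996), and 0.03 without MCK-Musclin 2, so single libraries decided its call and direction.

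Apoc1 was at 337, 308 and 301 FPKM in WT and at 240, 275 and 328 FPKM in MCK-Musclin 1 to 3. The 2 lowest libraries were MCK-Musclin 1 and 2, and MCK-Musclin 3 lay within the WT range (log2 fold change -0.18, 95% interval -0.46 to 0.11, limma adjusted p = 0.968). It was -0.07 without MCK-Musclin 1 or when centred on adipocyte markers. Without MCK-Musclin 3 it was -0.29 (SE 0.10, limma unadjusted p = 0.0264, limma adjusted p = 0.887). That met the p part of the cutoff but was short of the fold change of 0.3. Apod was at 15.9, 7.97 and 8.48 FPKM in WT and at 12.3, 9.96 and 15.9 FPKM in MCK-Musclin. Its log2 fold change was 0.26 (SE 0.27, limma adjusted p = 0.968), and 0.55 without WT 1, which passed the unadjusted cutoff (limma adjusted p = 0.98).

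Apoc3 was at 5.75, 3.53 and 4.76 FPKM in WT and at 6.20, 4.52 and 2.53 FPKM in MCK-Musclin. Apoa2 was at 0.646, 2.18 and 2.50 FPKM in WT and at 1.78, 1.99 and 1.76 FPKM in MCK-Musclin. The genotypes overlapped for both, with log2 fold changes of -0.11 and 0.11 (SE 0.27 and 0.28, limma adjusted p = 0.988 for each). Without WT 1 the Apoc3 value was 0.02 and the Apoa2 value -0.23, and without MCK-Musclin 3 the Apoc3 value was 0.17.

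**Figure D4:**
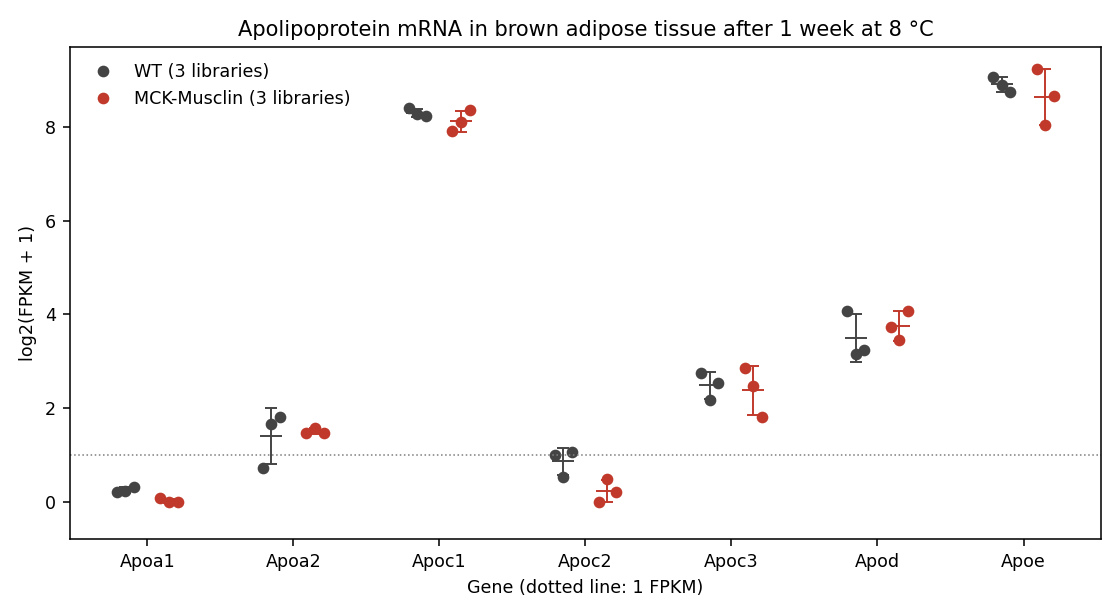
Level of the 7 apolipoproteins read above 0 in BAT after 1 week at 8 °C, as log2(FPKM + 1), with 1 point per library, WT in grey and MCK-Musclin in red, and bars for the mean ± SD of 3 libraries. Apoe and Apoc1 stand at similar heights, and Apoa1 and Apoc2 lie near or below the dotted line at 1 FPKM.

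The other 5 members in BAT lay below the filter. Apoa4, Apoa5 and Apob were listed at 0 in all 6 libraries. Apoc2 was at 0.99, 0.447 and 1.09 FPKM in WT and at 0, 0.397 and 0.164 FPKM in MCK-Musclin, and Apoa1 at 0.151, 0.182 and 0.244 FPKM in WT and at 0.0548, 0 and 0 FPKM in MCK-Musclin. In each gene all WT libraries lay above all MCK-Musclin libraries. Among the 10893 genes above the filter, 5.63% were lower and 4.38% higher in MCK-Musclin BAT without overlap. With no filter Apoc2 passed the unadjusted cutoff (log2 fold change -0.63, limma adjusted p = 0.908). Hepatocyte markers other than Cyp2e1 did not pass 0.151 FPKM in BAT, and Alb was at 0.0257, 0 and 0.0492 FPKM in WT and listed at 0 in all 3 MCK-Musclin libraries.

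The balance of Apoe and Apoc1, neighbours in the chromosome 7 cluster, differed between tissues. The ratio of Apoe to Apoc1 FPKM was 10.2 in liver, 92.2 in white adipose and 16.4 in brown adipose. In cold iWAT it was 41.0, 40.8 and 40.8 in WT, 47.9 in the library labelled MCK-Musclin 1, and 66.0 and 65.1 in MCK-Musclin 2 and 3, so that the genotypes did not overlap. This ratio does not change when all values of a library are multiplied by 1 factor, but quantile normalization can change it. After that step the iWAT log2 fold changes were -0.08 for Apoe and -0.33 for Apoc1, against 0.24 and -0.29 before it. The ratio was chosen after its values were seen and was given no test. For single genes in iWAT, 17.9% were higher and 5.44% lower in MCK-Musclin without overlap. In cold BAT the ratio was 1.59, 1.55 and 1.43 in WT and 2.50, 0.956 and 1.23 in MCK-Musclin, with overlap.

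Macrophage markers moved with Apoe in part. In iWAT the 12 markers summed to 763 to 788 FPKM in WT, to 1077 FPKM in the library labelled MCK-Musclin 1 and to 775 and 1101 FPKM in MCK-Musclin 2 and 3, and the libraries with the 2 highest sums were those with the 2 highest Apoe values. In BAT the sum was 62.4 to 80.5 FPKM in WT and 164, 60.2 and 69.0 FPKM in MCK-Musclin 1 to 3, and the highest and the lowest library were again those of Apoe. All 12 markers were above 0 in each cold library. Lyz2 was the largest part of each sum, at 320 to 507 FPKM in iWAT. In iWAT 10 of the 12 had a log2 fold change above 0. The exceptions, Cd163 and Cd14, were highest in WT 3 (49.5 and 8.6 FPKM), the library with the lowest Apoe. Of the 12 tested in iWAT, 1 passed the cutoff of the study (Cd68, higher), as did 1 of 11 in BAT (Csf1r, higher). Of all genes tested, 5.04% in iWAT and 1.85% in BAT were higher by that cutoff. The part of macrophages in the Apoe values was not tested, and in whole tissue fewer cells of a type and less RNA per cell cannot be told apart.

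**Figure D5:**
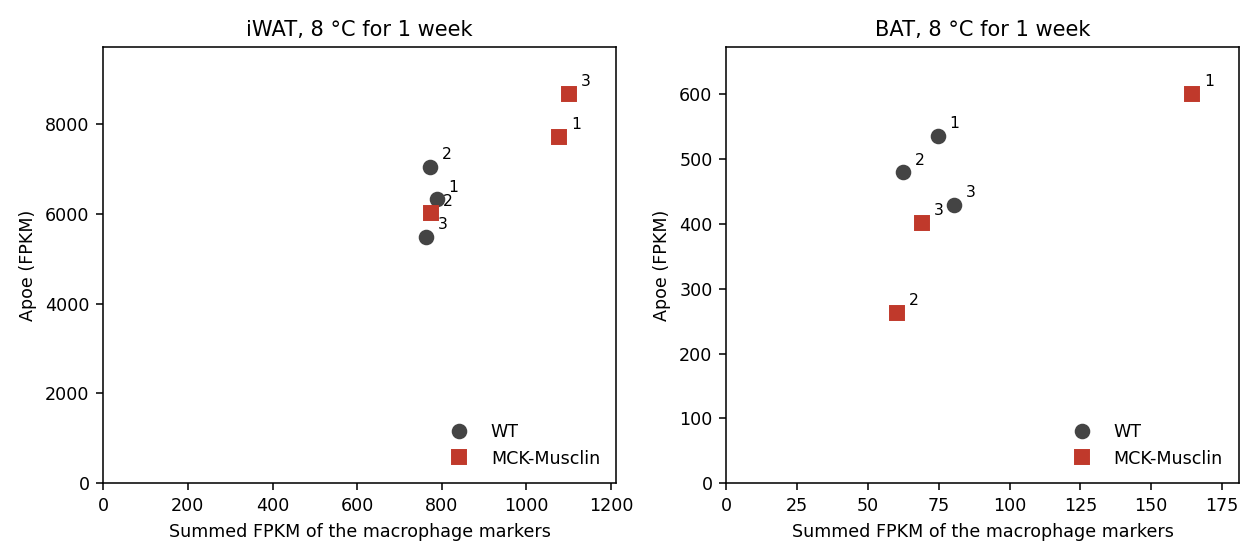
Apoe (vertical axis, FPKM) against the summed FPKM of 12 macrophage markers (horizontal axis) in the cold iWAT libraries (left) and the cold BAT libraries (right), 1 point per library with its replicate number, WT as circles and MCK-Musclin as squares. The libraries labelled MCK-Musclin 1 and 3 are high on both axes in iWAT, and MCK-Musclin 1 is high on both in BAT.

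Adipocytes are the other main cells of these depots. The 7 adipocyte markers summed to 13073 to 14476 FPKM in WT iWAT and 11590 to 13157 FPKM in MCK-Musclin iWAT, and to 8142 to 8834 FPKM in WT BAT and 7641 to 8362 FPKM in MCK-Musclin BAT. Fibroblast and progenitor markers, a possible place of Apod, summed to 480 to 622 FPKM in WT iWAT and 438 to 634 FPKM in MCK-Musclin iWAT.

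Around the members, 5 of the 35 pathway genes tested in iWAT passed the cutoff of the study, 4 higher and 1 lower. In limma 12 of the 35 had an unadjusted p under 0.05 and none an adjusted p under 0.05. Of all 12197 genes tested in iWAT, 5.04% were higher and 0.902% lower by the cutoff, and 2012 had an unadjusted p under 0.05. Clu, the apolipoprotein also called clusterin, rose from 135, 118 and 73.9 FPKM in WT to 184 FPKM in the library labelled MCK-Musclin 1 and 190 and 285 FPKM in MCK-Musclin 2 and 3 (log2 fold change 1.02, SE 0.26, limma adjusted p = 0.157). Lrp8, a receptor for Apoe, rose from 1.44, 0.773 and 1.15 FPKM to 2.69, 2.57 and 3.53 FPKM (log2 fold change 0.89, SE 0.17, limma adjusted p = 0.143). For both genes all MCK-Musclin libraries lay above all WT libraries, as they did for 17.9% of all genes tested in iWAT. Of the 3 other apolipoproteins and plasma lipoprotein proteins tested (Clu, Pltp and Pon1), Clu alone passed. Of the 10 receptors tested, Lrp8 alone passed.

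Of 8 plasma lipolysis genes, Lipg (endothelial lipase, log2 fold change 0.60, SE 0.22, limma adjusted p = 0.247) and Angptl4, an inhibitor of lipoprotein lipase (0.95, SE 0.40, limma adjusted p = 0.294), passed as higher. Angptl4 overlapped, with WT 2 at 49.8 FPKM among MCK-Musclin libraries of 41.7 to 58.5 FPKM. Of 7 transcriptional regulators, Ppara passed as lower, at 2.59, 4.33 and 5.11 FPKM in WT and 3.29, 1.53 and 1.77 FPKM in MCK-Musclin (log2 fold change -0.65, SE 0.26, limma adjusted p = 0.28). Ppara was at 42.0 FPKM in brown and 1.61 FPKM in white adipose of the 7 tissues. The 5 brown and beige adipocyte markers (Ucp1, Cidea, Cox8b, Cox7a1 and Elovl3) moved with it, summing to 560 to 1049 FPKM in WT iWAT, to 630 FPKM in the library labelled MCK-Musclin 1 and to 218 and 113 FPKM in MCK-Musclin 2 and 3. Of the 5, 4 passed as lower (median log2 fold change -1.76), against 0.902% of all genes, and none was at 0 in any iWAT library. Their part in the Ppara value was not tested. None of 7 assembly and efflux genes passed. The smallest p there was that of Abca1, which exports cholesterol to Apoa1 (log2 fold change -0.39, limma adjusted p = 0.249), and 2 of the 7 had an unadjusted p under 0.05. Lpl, chosen after its values were seen, was at 1439, 1370 and 1305 FPKM in WT and 1220, 1093 and 991 FPKM in MCK-Musclin (log2 fold change -0.32, limma adjusted p = 0.265).

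The count of 5 was 2 without WT 3 and 3 without MCK-Musclin 3. Without the library labelled MCK-Musclin 1 it was 6 (4 higher and 2 lower), and of all iWAT genes 700 were higher and 178 lower. The split of higher and lower calls over all iWAT genes moved with the scaling from 615 and 110 to 605 and 201 as TPM, 426 and 187 after median-ratio scaling, 426 and 181 after quantile normalization and 2000 and 25 when centred on adipocyte markers. The median log2 fold changes of the lists were 0.37 (other apolipoproteins and plasma lipoprotein proteins), 0.15 (assembly and efflux) and 0.04 (receptors). They were 0.04 (plasma lipolysis) and 0.02 (transcriptional regulators), beside 0.06 for all genes.

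In BAT none of the 30 pathway genes tested passed the cutoff of the study or had an unadjusted p under 0.05 in limma. The smallest p in each list was that of Pltp (log2 fold change -0.20), Apobec1, the editing enzyme of Apob mRNA (0.28), Vldlr (-0.19), Lmf1, a maturation factor of lipoprotein lipase (-0.22), and Srebf2 (-0.11), with limma adjusted p from 0.968 to 0.972. The list medians lay between -0.13 and 0.01, beside -0.01 for all genes. Lpl was at 583, 516 and 542 FPKM in WT and at 651, 411 and 659 FPKM in MCK-Musclin, and Clu had a log2 fold change of -0.06 (SE 0.24). Up to 2 pathway genes passed when 1 library was left out, the 2 without MCK-Musclin 1. The split of calls over all BAT genes was 202 higher and 234 lower, and 549 and 86 when centred on adipocyte markers.

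Side by side, Apoe, Apoc1 and Apod were the 3 highest members in each of the fat libraries. Apoe was first except in MCK-Musclin 2 of cold BAT, where Apoc1 was, and Apoc1 was above Apod except in MCK-Musclin 2 of cold iWAT. In cold BAT the 10 members made up 0.0781% to 0.127% of the summed FPKM and in cold iWAT the 6 listed members made up 1.56% to 2.32%. Brown adipose at 3262 FPKM of Apoe and cold BAT at 263 to 600 FPKM differ in table, mice and temperature, which cannot be told apart, and no test was made between tables.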

How the data were processed

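The authors made poly(A) RNA-seq libraries with a random-primed kit. Per the labels, RNA of white adipose and iWAT was isolated with a commercial kit and that of the other tissues with TRIzol, so depot and extraction cannot be told apart. The authors filtered reads with fastp and bowtie2, aligned them to mm10 (GRCm38) with HISAT2 2.1.0 without strand, and deposited FPKM per gene and library. StringTie is named for FPKM in the methods, and the submitters' processing notes also name Bowtie2 2.4.1 and Cuffdiff. The deposited iWAT table also holds the authors' own comparison (fold changes, p-values, adjusted values and group means), which was not used. How its genes were selected is not given in the sources used here.

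All 19 libraries were read from the tables of 7 tissues, BAT and iWAT, and 287 lines that repeat a gene in each of the tables of 7 tissues and BAT were used once. Tables were normalized separately, so tests were made only within a table. R 4.3.3 and limma 3.58.1 served for the genotype comparison: values were taken as log2(FPKM + 1), genes averaging at least 1 FPKM over the 6 libraries were fitted with lmFit and eBayes (trend), and p-values were adjusted by Benjamini-Hochberg over all of them. Fold changes on this scale understate the change of low genes. Read counts were not analysed here, so the count test of the study was not run. Per the methods of the study each library is from a separate animal, so p-values measure the spread between animals. The fit was also run on values simulated gene by gene, without shifts shared by a whole library, so that run cannot check for such shifts. Its outcome is not reported here.

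The members and all gene lists were chosen with earlier results of these data known. Named were all members, in each list and depot the genes past the cutoff (at most 3) or else the one with the smallest p, the most abundant genes of a list in the 7 tissues, and the 3 genes most like each member. Some genes that this rule names are not reported here. Alternatives changed the pseudocount, filter, scaling, eBayes settings, block, cutoff or libraries. Positions are from GENCODE (GRCm38) and promoters from RefSeq. Figures and sums were made with Python 3.11.15, pandas 2.3.3, numpy 2.4.6 and matplotlib 3.10.9.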

Additional observations from a re-analysis of the deposited data

How the results depend on the processing

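No member passed the cutoff of the study in iWAT under any of the alternatives run. In BAT the count of members past it was 1 with no filter on low values (Apoc2), and 0 to 1 when 1 library was left out (0 with all 6), with Apod passing without WT 1 and Apoe without MCK-Musclin 1. Of 63 fold changes of iWAT members under other scalings, filters and models, 58 kept their direction. The exceptions were Apoc2 at -0.00594 and Apod at -0.0248 after median-ratio scaling, Apoc2 at -0.0158 and Apoe at -0.0833 after quantile normalization, and Apoa1 at 0.0721 when centred on adipocyte markers. All 53 such values in BAT kept their direction. With 1 library left out, the ranges in iWAT were -0.615 to 0.56 for Apoa1, -1.27 to 0.565 for Apoa2, -0.472 to -0.0646 for Apoc1, 0.122 to 0.386 for Apoe, -0.212 to 0.262 for Apoc2 and -0.0891 to 0.159 for Apod. In BAT they were -0.232 to 0.313 for Apoa2, -0.295 to -0.0707 for Apoc1, -0.344 to 0.17 for Apoc3 and -0.56 to 0.034 for Apoe. The cause of these shifts was not tested.

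The 5 iWAT pathway genes became 2 with a filter at 5 FPKM (fewer genes tested), 9 when centred on adipocyte markers, which moved the median of all genes from 0.0614 to 0.28, 11 at a log2 cutoff of 0.3, and 2 to 7 with 1 library left out. In BAT 0 to 2 passed with 1 library left out. Members highest in liver numbered 7 or 8 over the scalings. With 0.1 or 5 FPKM in place of 1 FPKM, 51 or 30 of the 70 pairs of member and tissue were counted.

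Same-numbered WT and MCK-Musclin libraries had correlations of their deviations of 0.235, 0.0615 and 0.107 in iWAT and of -0.0951, -0.00463 and 0.00937 in BAT. In iWAT each of these was the highest value of its WT library, although MCK-Musclin 2 correlated more with WT 3 (0.0702) than with WT 2. The numbers were not taken as pairs, but for iWAT these values do not settle whether the libraries were paired. With the replicate block, 0 members passed in either depot, 4 pathway genes passed in iWAT and 0 in BAT. The iWAT depth is unknown, and 1 library per tissue limits the 7 tissues.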
